A study of Rattus norvegicus with 12 samples.

Results

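The 9 genes described here belong to interleukin-6 signalling: the ligand genes Il6, Il11, Lif and Osm, Csf3 and Ebi3, the shared receptor gene Il6st, and Stat3 with its feedback gene Socs3. They were found by symbol in a table of 30452 genes measured by RNA sequencing in rat corneas. All 9 were present, each with 1 gene ID, and 8 passed the filter on low values, Il11 being the exception.

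The 12 cornea libraries fall into SF/HA-HEP-PAM, SF/HA, Alkali-burned and Control, with 3 libraries in each. The series concerns a detachable patch built on silk that is placed on the eye to remove mediators of inflammation. What SF, HA, HEP and PAM stand for is not written out in the labels, which give no strain, age or sampling time. Nor do they state if SF/HA and SF/HA-HEP-PAM corneas had been burned. They do not say whether libraries of a group came from separate animals, so the tests measure the spread between libraries, which may be technical. Alkali burning of the cornea is a chemical injury that brings myeloid cells into a tissue that normally holds few of them.

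Cytokines of the interleukin-6 family are secreted proteins that signal through gp130, the protein encoded by Il6st, paired with a receptor of their own. The bound complex activates JAK kinases, which phosphorylate STAT3, and STAT3 then drives acute-phase genes and Socs3, whose product shuts the receptor down. Csf3 encodes G-CSF, the growth factor for neutrophils, which has a separate receptor that also signals through STAT3. Ebi3 encodes a soluble receptor-like subunit that pairs with p28 to form IL-27 or with p35 to form IL-35.

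The libraries held between 1245606 and 2117399 reads in SF/HA-HEP-PAM, 499061 and 957696 in SF/HA, 1173159 and 1265298 in Alkali-burned and 486264 and 1015788 in Control, as worked back from the deposited values. Values are FPKM, reads scaled to gene length and to library size, where the length used is the whole genomic span with introns, so levels are compared between groups for 1 gene and not between genes. Markers of the cornea were present in all 12 libraries: Krt12, the keratin of corneal epithelium, was between 1033 and 3655 FPKM, and Kera, a keratocyte proteoglycan, between 49.2 and 794 FPKM. Among the Control libraries replicate 1 was unlike its fellows, with 2542 FPKM of Col1a1, a collagen of the stroma, where they had 909.9 and 990.0.

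The promoters of Il6 and Il11 are shown because Il6 was called higher in all 3 burned and patch groups while Il11 had at most 3 reads in any library. The sequences are from RefSeq on build GRCr8, read in the direction of the gene, from 250 bases before the annotated start to 50 bases after it, and RefSeq's table held 5 of the 9 genes. That of Il6 is chr4:5894526-5894825 on the minus strand and that of Il11 is chr1:78098372-78098671 on the plus strand. Capitals mark the motif matches.
Il6: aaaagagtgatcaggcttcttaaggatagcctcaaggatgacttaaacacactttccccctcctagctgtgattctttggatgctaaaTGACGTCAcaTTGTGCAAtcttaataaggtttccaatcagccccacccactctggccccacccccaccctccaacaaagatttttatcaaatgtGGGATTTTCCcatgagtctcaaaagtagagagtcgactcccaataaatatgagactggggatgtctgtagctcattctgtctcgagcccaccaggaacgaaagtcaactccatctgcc
Il11: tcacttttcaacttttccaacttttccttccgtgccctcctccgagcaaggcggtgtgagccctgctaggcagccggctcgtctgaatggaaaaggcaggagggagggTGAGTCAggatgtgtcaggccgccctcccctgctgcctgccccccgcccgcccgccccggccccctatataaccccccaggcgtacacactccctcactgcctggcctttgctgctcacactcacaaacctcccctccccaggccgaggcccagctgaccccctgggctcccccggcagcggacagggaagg
In all, 6 patterns were searched on both strands: TTCCNGGAA and TTCNNNGAA for STAT factors, GGG, any 2 bases and TTTCC for NF-kB, TGANTCA for AP-1, TGACGTCA for the cAMP response element and TTGCNNAA for C/EBP factors. The Il6 window held the cAMP response element from -162 to -155, a C/EBP pattern (read on the other strand) from -152 to -145 and the NF-kB pattern GGGATTTTCC from -68 to -59, counted from the start site. Of 33469 rat promoter windows of the same length, 1.83% held the cAMP response element, 10.6% the C/EBP pattern and 1.53% the NF-kB pattern. The Il11 window held the AP-1 pattern from -142 to -136, as did 7.33% of the windows. The windows of Il6st, Stat3 and Socs3 held none of the 6 patterns. Those of Il6st and Socs3 may lie within the gene, so their lack of matches says nothing about the promoter. Only 1 annotated start per gene was used, and whether it marks the promoter in use was not tested. Sequence outside these windows was not searched, so sites elsewhere at these genes could not be seen. The STAT patterns were in 1.27% and 8.87% of all windows, and every match of the first is also a match of the second. These are matches of letters and no binding was measured.

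**Figure D1:**
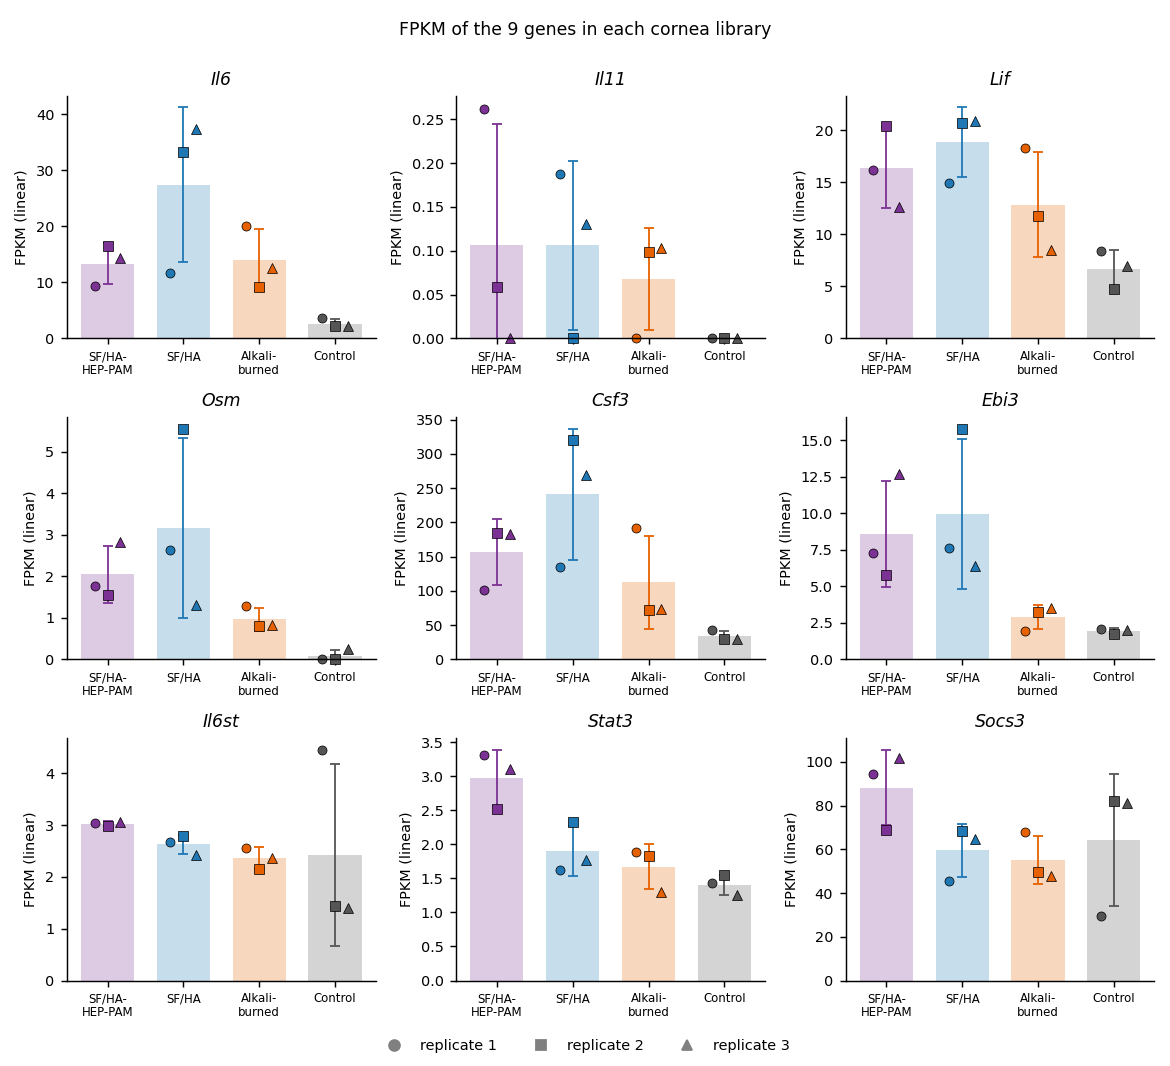
FPKM (linear axis from 0) of the 9 genes in each of the 12 libraries, by group. Points are libraries, bars are group means and error bars are SD of 3 libraries; the 5 genes Il6, Lif, Osm, Csf3 and Ebi3 are higher in every library of both patch groups than in Control, while Il11 is near 0 throughout.

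The genes of 5 secreted factors, Il6, Csf3, Osm, Ebi3 and Lif, were higher in both patch groups than in Control, and Il6 was also higher in Alkali-burned than in Control. A gene was called when limma's Benjamini-Hochberg adjusted p over 6112 tested genes was below 0.05 and the log2(FPKM + 1) difference was above 1 or below -1. Against Control, 5 of 8 tested genes were called higher in SF/HA-HEP-PAM, where 9.21% of all tested genes were called higher and 11.6% in either direction. Also 5 of 8 were called higher in SF/HA, where 3.19% of all tested genes were called higher and 4.56% in either direction. In Alkali-burned 1 of 8 was called, with 4.42% of all tested genes called higher and 5.69% in either direction. The 3 comparisons share the Control libraries and are not independent of each other. Osm, among the 5 of each patch group, passed the filter only through the burned and patch libraries, so it had to stand above Control. No gene of the 9 was called lower in any comparison.

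Il6 encodes the founding cytokine of the family, a main inducer of the acute-phase response. It lies on chromosome 4 from 5213394 to 5219178 (minus strand, build mRatBN7.2, ENSRNOG00000010278). It had 9.29, 16.5 and 14.3 FPKM in SF/HA-HEP-PAM, 11.6, 33.3 and 37.4 FPKM in SF/HA, 20.04, 9.15 and 12.6 FPKM in Alkali-burned, and 3.55, 2.15 and 2.21 FPKM in Control. All 9 libraries of the burned and patch groups lay above the 3 Control libraries, while those 3 groups overlapped each other. The Control values rest on 10 to 13 reads per library.

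Mean Il6 was 13.4 ± 3.69 FPKM in SF/HA-HEP-PAM, 27.4 ± 13.8 FPKM in SF/HA and 13.9 ± 5.56 FPKM in Alkali-burned, against 2.64 ± 0.795 FPKM in Control (SD, n = 3 each). It rose in SF/HA relative to Control by 2.83 ± 0.42 on the log2(FPKM + 1) scale (SE, limma adjusted p = 0.00372), a ratio of mean FPKM of 10.4. In SF/HA-HEP-PAM it rose relative to Control by 1.97 ± 0.42 (SE, limma adjusted p = 0.0090). In Alkali-burned it rose by 1.99 ± 0.42 (SE, limma adjusted p = 0.0164), a ratio of 5.29. The call in Alkali-burned was lost when any 1 of 4 libraries was left out, with limma adjusted p of 0.0573 without Control replicate 2, 0.0530 without Control replicate 3, 0.0610 without Alkali-burned replicate 1 and 0.0503 without Alkali-burned replicate 3. The calls in both patch groups held with each library left out in turn. In bulk corneas, more cells that make a transcript and more transcript per cell cannot be told apart.

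Csf3 lies on chromosome 10 from 83661207 to 83663603 (plus strand, ENSRNOG00000008525). It had 101, 185 and 183 FPKM in SF/HA-HEP-PAM, 135, 320.2 and 269 FPKM in SF/HA, 191, 72.9 and 74.0 FPKM in Alkali-burned, and 42.9, 30.1 and 29.6 FPKM in Control. Every burned and patch library was above every Control library, and Alkali-burned replicate 1 was more than the other 2 burned libraries added together. Csf3 rose in SF/HA relative to Control by 2.71 ± 0.43 on the log2(FPKM + 1) scale (SE, limma adjusted p = 0.00512), with a ratio of means of 7.06. It rose in SF/HA-HEP-PAM relative to Control by 2.13 ± 0.43 (SE, limma adjusted p = 0.00734), with a ratio of 4.57.

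Alkali-burned and Control differed in Csf3 by 1.56 ± 0.43 log2 (SE, limma adjusted p = 0.0502), just short of the threshold, at 113 ± 68.1 FPKM against 34.2 ± 7.54 FPKM (SD, n = 3 each). On the reads worked back from the values, with limma's voom, the same difference was 1.61 with an adjusted p of 0.0169 and was called, where 5.25% of 8653 genes were called higher. Without Alkali-burned replicate 1 the limma difference was 1.10. The receptor gene of G-CSF, Csf3r, is a neutrophil marker and did not pass the filter, with at most 0.612 FPKM in any library.

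Lif encodes leukemia inhibitory factor and Osm encodes oncostatin M, a cytokine made largely by myeloid cells. The genes are neighbours on chromosome 14 on the plus strand, Osm from 79104344 to 79108313 (ENSRNOG00000024390) and Lif from 79134574 to 79140482 (ENSRNOG00000007002), with 26260 bases and no annotated gene of the table between them. Lif had 16.2, 20.4 and 12.6 FPKM in SF/HA-HEP-PAM, 14.9, 20.7 and 20.9 FPKM in SF/HA, 18.3, 11.8 and 8.48 FPKM in Alkali-burned, and 8.35, 4.77 and 6.997 FPKM in Control. Its lowest burned library lay just above its highest Control library.

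Lif rose in SF/HA relative to Control by 1.38 ± 0.29 log2 (SE, limma adjusted p = 0.0187) and in SF/HA-HEP-PAM by 1.18 ± 0.29 log2 (SE, limma adjusted p = 0.0159). The SF/HA call was lost without Control replicate 2, SF/HA replicate 2 or SF/HA replicate 3 (limma adjusted p = 0.0713, 0.0580 and 0.0637). The SF/HA-HEP-PAM call was lost without Control replicate 2 or SF/HA-HEP-PAM replicate 2 (limma adjusted p = 0.0570 and 0.0609). Alkali-burned and Control differed in Lif by 0.81 ± 0.29 log2 (SE, limma adjusted p = 0.113), which was not called.

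Osm was at the edge of detection. It had 1.76, 1.55 and 2.83 FPKM in SF/HA-HEP-PAM, 2.64, 5.55 and 1.32 FPKM in SF/HA, 1.29, 0.796 and 0.828 FPKM in Alkali-burned, and 0, 0 and 0.248 FPKM in Control. The groups held 37, 23 and 14 reads of Osm in SF/HA-HEP-PAM, SF/HA and Alkali-burned, against 1 read in the 3 Control libraries together. No Control library reached a burned or patch library, and no burned library reached a library of either patch group.

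Per read sequenced, Osm was 18.4 times as frequent in SF/HA-HEP-PAM as in Control (exact 95% interval 3.11 to 747), 25.9 times in SF/HA (4.20 to 1065) and 9.15 times in Alkali-burned (1.39 to 387), intervals that cover counting error only. It rose on the log2(FPKM + 1) scale by 1.82 ± 0.33 in SF/HA (SE, limma adjusted p = 0.00935) and by 1.48 ± 0.33 in SF/HA-HEP-PAM (SE, limma adjusted p = 0.0100) relative to Control, calls that held with each library left out in turn. Osm passed the filter only through the burned and patch libraries, so it had to stand above Control. Among the burned libraries only replicate 1 reached 1 FPKM, so this holds for the patch groups. Alkali-burned and Control differed by 0.86 ± 0.33 log2 (SE, limma adjusted p = 0.138), which was not called.

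Il11 encodes a cytokine that uses gp130 together with the receptor encoded by Il11ra1. Its gene lies on chromosome 1 from 69068137 to 69076129 (plus strand, ENSRNOG00000017386) and overlaps Tmem238 on the same strand, so reads of the 2 genes could be shared. Il11 had 4 reads in the 3 SF/HA-HEP-PAM libraries together, 2 in SF/HA, 2 in Alkali-burned and 0 in Control. No library exceeded 3 reads, the number that a count of 0 still allows, so no fold is given and a difference was not detectable at this depth.

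Ebi3 was higher in both patch groups than in Alkali-burned, and Alkali-burned overlapped Control. The order of its group means was that of Csf3, Lif and Osm. The gene lies on chromosome 9 from 783617 to 787544 (plus strand, ENSRNOG00000050509) and overlaps ENSRNOG00000069449 on the minus strand. Whether counting used strand is not given in the sources used here, so reads of the pair cannot be told apart; the overlapping gene averaged 3.83 reads per library. Ebi3 had 7.29, 5.77 and 12.7 FPKM in SF/HA-HEP-PAM, 7.62, 15.8 and 6.38 FPKM in SF/HA, 1.95, 3.22 and 3.56 FPKM in Alkali-burned, and 2.09, 1.72 and 2.01 FPKM in Control. The lowest patch library, at 5.77 FPKM, was above the highest burned library.

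Against Alkali-burned, Ebi3 was the 1 gene of the 8 called in each patch group. It rose in SF/HA-HEP-PAM relative to Alkali-burned by 1.25 ± 0.33 log2 (SE, limma adjusted p = 0.0238), where 7.38% of all tested genes were called higher and 11.1% in either direction. It rose in SF/HA relative to Alkali-burned by 1.41 ± 0.33 log2 (SE, limma adjusted p = 0.0492), where 0.376% of all tested genes were called higher and 2.44% in either direction. These 2 comparisons share the burned libraries.

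The Ebi3 calls against Alkali-burned depended on single libraries. The SF/HA call was lost without Alkali-burned replicate 1, 2 or 3 (limma adjusted p = 0.134, 0.131 and 0.109) and without SF/HA replicate 1 or 2 (0.0821 and 0.142). The SF/HA-HEP-PAM call was lost without Alkali-burned replicate 1 or 2 (limma adjusted p = 0.0834 and 0.0507) and without SF/HA-HEP-PAM replicate 1 or 3 (0.0532 and 0.0907). The direction was the same each time.

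Against Control, Ebi3 rose by 1.80 ± 0.33 log2 in SF/HA (SE, limma adjusted p = 0.0110) and by 1.64 ± 0.33 log2 in SF/HA-HEP-PAM (SE, limma adjusted p = 0.00726), and both calls held with each library left out in turn. Alkali-burned and Control differed by 0.39 log2, with a 95% interval of -0.35 to 1.13 (limma adjusted p = 0.537). The genes of its partner subunits had few or no reads: Il27, which encodes p28, was at 0 in all 12 libraries, and Il12a, which encodes p35, was at 0 in 10 libraries and at most 0.150 FPKM.

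The receptor gene and the intracellular genes were not called by limma in any comparison. Il6st, on chromosome 2 from 44066130 to 44109936 (plus strand, ENSRNOG00000013963), had 3.04, 2.98 and 3.06 FPKM in SF/HA-HEP-PAM, 2.67, 2.79 and 2.43 FPKM in SF/HA, 2.57, 2.15 and 2.36 FPKM in Alkali-burned, and 4.46, 1.44 and 1.39 FPKM in Control. Control replicate 1 was the highest of all 12 libraries and the other 2 Control libraries were the lowest. Il6st was not called in any of the 6 comparisons. Without Control replicate 1 the differences from Control were 0.74 ± 0.11 log2 in SF/HA-HEP-PAM (SE, limma adjusted p = 0.00268), 0.58 ± 0.11 in SF/HA (limma adjusted p = 0.0128) and 0.47 ± 0.11 in Alkali-burned (limma adjusted p = 0.0256), all under the size threshold of 1. Without Control replicate 2 or 3 instead, the Alkali-burned difference was -0.11 or -0.12 log2. The share of all genes past the p threshold in these fits is not given here.

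Stat3 encodes the transcription factor that carries the signal to the nucleus and lies on chromosome 10 from 85811218 to 85863057 (minus strand, ENSRNOG00000019742). It had 3.31, 2.51 and 3.10 FPKM in SF/HA-HEP-PAM, 1.62, 2.32 and 1.77 FPKM in SF/HA, 1.89, 1.83 and 1.299 FPKM in Alkali-burned, and 1.43, 1.55 and 1.25 FPKM in Control. The 3 SF/HA-HEP-PAM libraries were above the other 9. The difference from Control was 0.72 ± 0.15 log2 (SE, limma adjusted p = 0.00758) and that from Alkali-burned was 0.57 ± 0.15 log2 (SE, limma adjusted p = 0.0203), both past the p threshold, as were 21.9% and 22.5% of all tested genes, and under the size threshold. On the recovered reads with voom, the difference from Control was 1.06 (adjusted p = 0.00178) and was called, where 14.2% of genes were called higher.

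Gene length moved with the Stat3 and Il6st values. When 8653 genes were split by genomic length into 10 bins, the bin that holds both had a median voom difference of 0.36 log2 between SF/HA-HEP-PAM and Control and of 0.42 log2 between SF/HA-HEP-PAM and Alkali-burned. The bin of shortest genes had medians of 0.08 and -0.19 log2 in the same comparisons. The part of length in the Stat3 difference was not tested.

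Socs3, the feedback inhibitor, lies on chromosome 10 from 103193537 to 103197787 (minus strand, ENSRNOG00000063373). It had 94.5, 68.7 and 102 FPKM in SF/HA-HEP-PAM, 45.4, 68.3 and 64.6 FPKM in SF/HA, 68.0, 49.6 and 47.7 FPKM in Alkali-burned, and 29.5, 82.3 and 81.1 FPKM in Control. It was not called in any comparison. Control replicate 1 was below all the other 11 libraries, and without it the difference between SF/HA and Control was -0.47 ± 0.24 log2 (SE, limma adjusted p = 0.241) and that between Alkali-burned and Control was -0.58 ± 0.24 log2 (SE, limma adjusted p = 0.156). SF/HA-HEP-PAM was above Alkali-burned without overlap, by 0.67 ± 0.36 log2 (SE, limma adjusted p = 0.219).

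**Figure D2:**
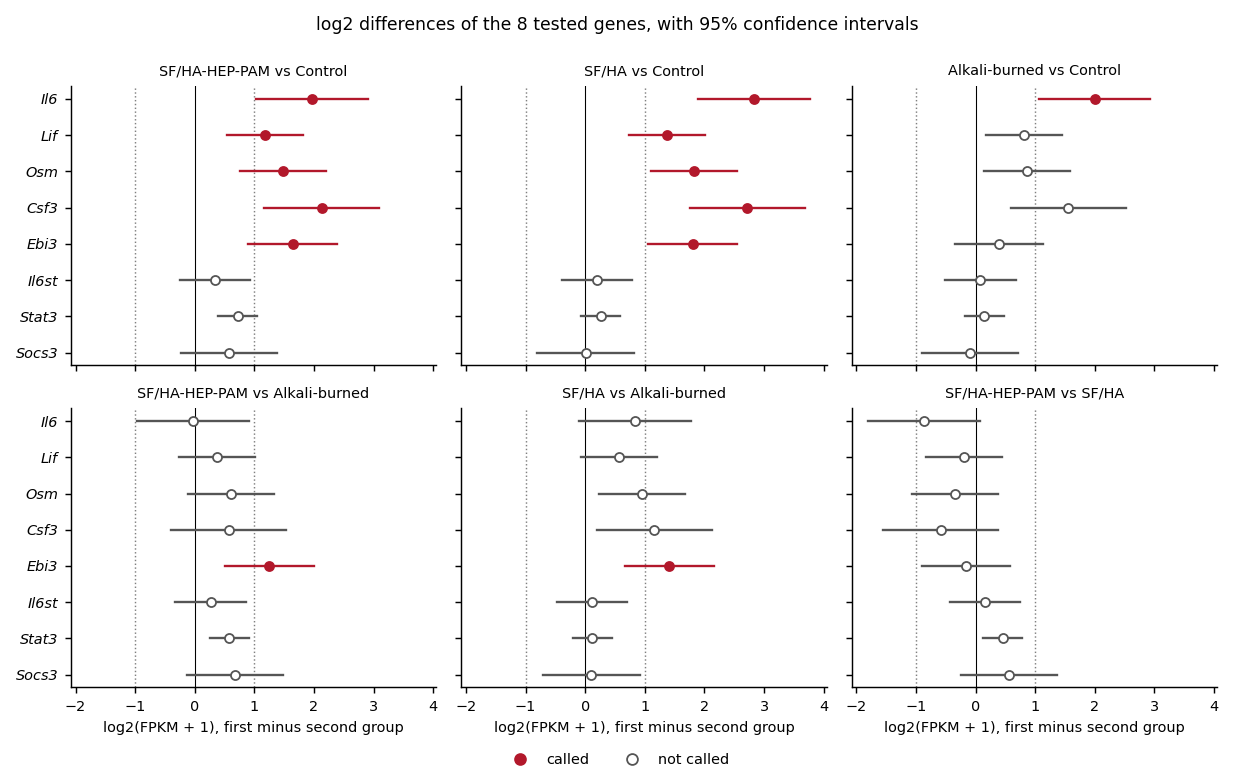
Differences in log2(FPKM + 1), first minus second group, of the 8 tested genes in the 6 comparisons, with 95% confidence intervals from limma; dotted lines mark -1 and 1. Filled red points are called: 5 of 8 for each patch group against Control, Il6 for Alkali-burned against Control, Ebi3 for each patch group against Alkali-burned, and 0 of 8 between the patch groups.

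Between the patch groups, SF/HA-HEP-PAM and SF/HA, 0 of 8 genes were called by limma, where 4.37% of all tested genes were called in either direction. In that fit on FPKM, Stat3 alone had an unadjusted p below 0.05. On recovered reads voom also called 0 of 8, where it called 9.35% of all its genes. Stat3 there differed by 0.65 log2 (voom adjusted p = 0.0474), past the p threshold and under the size threshold. The intervals leave room for sizeable differences. Il6 differed by -0.86 log2 (95% interval -1.80 to 0.07, limma adjusted p = 0.234), with SF/HA replicate 1 within the SF/HA-HEP-PAM range and SF/HA replicates 2 and 3 above it. Without SF/HA replicate 1, Il6 was called lower in SF/HA-HEP-PAM (-1.37, limma adjusted p = 0.0476). Csf3 differed by -0.59 (95% interval -1.55 to 0.38), Ebi3 by -0.16 (-0.90 to 0.58), Osm by -0.35 (-1.07 to 0.38) and Lif by -0.20 (-0.84 to 0.44). Stat3 differed by 0.46 (0.13 to 0.78, limma adjusted p = 0.0852).

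Between the patch groups and Alkali-burned, the ligands other than Ebi3 were not called. Il6 differed by -0.03 log2 in SF/HA-HEP-PAM (95% interval -0.96 to 0.91) and by 0.84 in SF/HA (-0.10 to 1.77). Csf3 differed by 0.57 in SF/HA-HEP-PAM (-0.39 to 1.53) and by 1.16 in SF/HA (0.19 to 2.12, limma adjusted p = 0.205). Osm differed by 0.61 in SF/HA-HEP-PAM (-0.11 to 1.34) and by 0.96 in SF/HA (0.24 to 1.68, limma adjusted p = 0.167). Without SF/HA replicate 3, Osm was called higher in SF/HA than in Alkali-burned (1.32, limma adjusted p = 0.0329). None of the 8 genes was lower in a patch group than in Alkali-burned beyond the spread.

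Counted by libraries that do not overlap, 6 of 8 genes in SF/HA-HEP-PAM and 6 of 8 in SF/HA lay above all Control libraries, against 27.2% and 12.9% of all tested genes. In Alkali-burned 4 of 8 lay above all Control libraries, against 19.1% of tested genes. Osm is among these genes in each group. By the filter it had to stand above Control in the patch groups, while only replicate 1 of its burned libraries reached 1 FPKM. Above all burned libraries were 5 of 8 genes in SF/HA-HEP-PAM and 2 of 8 in SF/HA, against 26.2% and 9.70% of tested genes. Above all SF/HA libraries were 3 of 8 in SF/HA-HEP-PAM, Il6st, Stat3 and Socs3, against 21.6% of tested genes.

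Over the 4 groups together, limma's moderated F-test found 6 of 8 genes with an adjusted p below 0.05, as it did 26.7% of all tested genes. The lowest adjusted p was that of Il6, 0.00457, and the 2 genes that missed the threshold were Il6st (0.693) and Socs3 (0.413). The median log2 difference of the 8 genes was 1.33 in SF/HA-HEP-PAM and 1.59 in SF/HA against Control, where the medians of all tested genes were 0.14 and 0.00. Osm, which had to stand above Control by the filter, counts in the 6 of 8 and in these medians.

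Csf2, which encodes GM-CSF, a growth factor for myeloid cells, was read among other ligands of the family and its relatives. It had 0.712 to 0.929 FPKM in SF/HA-HEP-PAM, 0 to 2.78 FPKM in SF/HA and 1.40 to 4.91 FPKM in Alkali-burned, and was listed at 0 in the 3 Control libraries. No SF/HA-HEP-PAM library reached 1 FPKM, and Csf2 passed the filter only through the burned and SF/HA libraries. In Alkali-burned it therefore had to stand above Control. Csf2 was called higher in Alkali-burned than in Control (limma adjusted p = 0.0201) and in neither patch group, where the differences from Control were 0.87 log2 in SF/HA-HEP-PAM and 0.88 log2 in SF/HA. The call was lost without Control replicate 2 or 3 or Alkali-burned replicate 1 or 3 (limma adjusted p = 0.0539 to 0.0725).

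Il23a, the p19 subunit of IL-23, had 13.5 to 39.1 FPKM in SF/HA-HEP-PAM, against 54.2 to 60.9 FPKM in Alkali-burned. It fell in SF/HA-HEP-PAM relative to Alkali-burned by 1.43 log2 (limma adjusted p = 0.0151), a call lost without SF/HA-HEP-PAM replicate 1 or 2 (0.0606 and 0.0569).

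Of 13 receptor genes in the table, 2 were tested. Il11ra1 had 5.18 to 8.90 FPKM in SF/HA-HEP-PAM, against 14.1 to 20.2 FPKM in Alkali-burned, and fell there by 1.15 log2 (limma adjusted p = 0.0257), a call that ended without Alkali-burned replicate 1, 2 or 3 or SF/HA-HEP-PAM replicate 1 or 3 (limma adjusted p = 0.0509 to 0.0966). The receptor genes of the ligands above, named here outside the rule for choosing genes, did not pass the filter of 1 FPKM in 3 libraries. Il6r was at most 0.831 FPKM, Osmr at most 0.463 FPKM and Lifr at most 0.0308 FPKM in any library. Genomic length enters FPKM, so a long gene can fall under the filter and still have reads. Il6r had 0.575 to 0.831 FPKM in SF/HA-HEP-PAM, against at most 0.451 in SF/HA, 0.135 in Alkali-burned and 0.337 in Control. That difference was not tested in this fit, and the groups overlapped in Osmr and Lifr. Of 9 JAK and STAT genes besides Stat3 only Stat2 was tested, and it was not called. The other genes fell under the filter on FPKM, though most had reads. Summed over the 9, a library held 283 to 458 reads in SF/HA-HEP-PAM and 74 to 125 in Control, not scaled to library size. Jak1 had 0.761 to 1.03 FPKM in SF/HA-HEP-PAM and 0.426 to 0.738 in Control. Jak2 had 0.771 to 1.15 and 0.153 to 0.314 FPKM, while Tyk2, Stat2, Stat4, Stat5a and Stat5b overlapped Control. The Jak1 and Jak2 differences were not tested in this fit.

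Of inhibitors of the pathway besides Socs3 the table held 15, and 6 were tested. Relative to Control 2 were called higher in SF/HA-HEP-PAM, 0 in SF/HA and 1 in Alkali-burned, where 9.21%, 3.19% and 4.42% of all tested genes were called higher. In SF/HA-HEP-PAM the count was 1 of 6 with quantile normalization and 5 of 14 with voom, where 385 of 6112 and 1232 of 8653 genes were called higher. Ptpn1, a phosphatase that acts on JAK kinases, had 8.10 to 8.43 FPKM in SF/HA-HEP-PAM, against 2.95 to 3.54 FPKM in Control, and rose by 1.15 ± 0.13 log2 (SE, limma adjusted p = 0.000346). Socs1, a close relative of Socs3, had 17.2 to 28.5 FPKM in SF/HA-HEP-PAM and 18.6 to 36.9 FPKM in Alkali-burned, against 6.48 to 11.1 FPKM in Control. Socs1 rose by 1.32 log2 in SF/HA-HEP-PAM (limma adjusted p = 0.0204) and by 1.48 log2 in Alkali-burned (limma adjusted p = 0.0240), both relative to Control. The first call was lost without Control replicate 3 or SF/HA-HEP-PAM replicate 1 or 2 (limma adjusted p = 0.0564 to 0.0739), the second without Control replicate 3 or Alkali-burned replicate 1 or 3 (0.0586 to 0.0821).

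**Figure D3:**
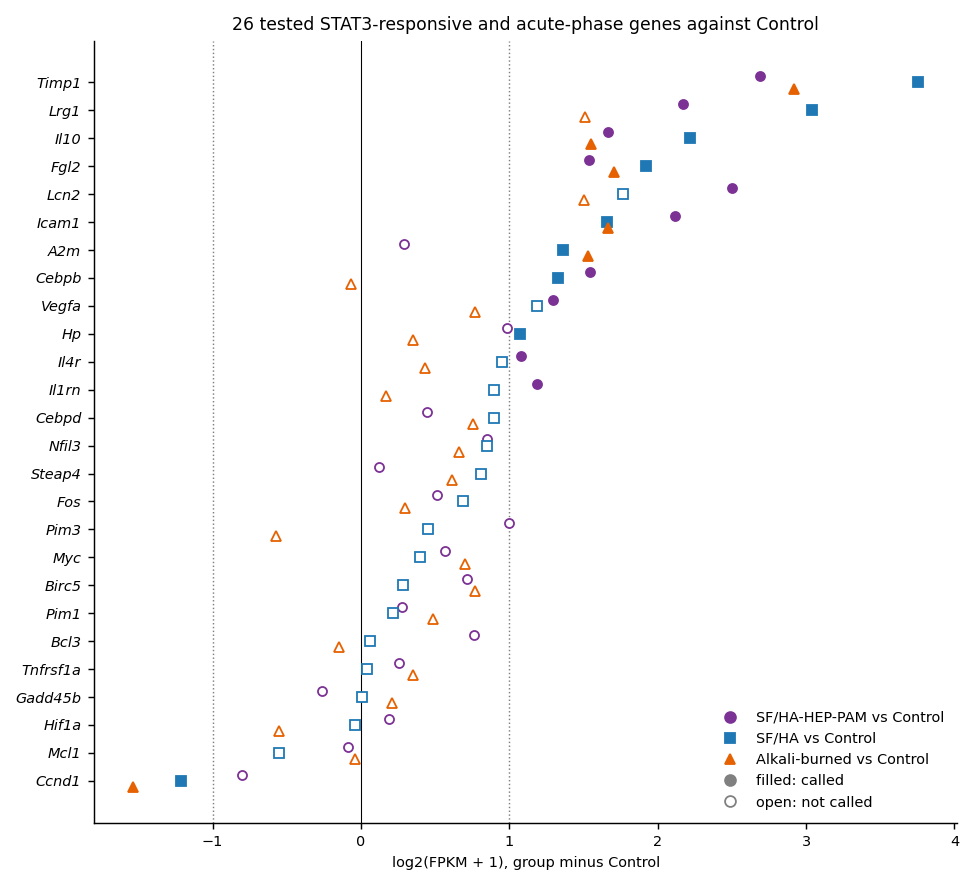
Differences in log2(FPKM + 1) from Control of the 26 tested genes of a list of STAT3-responsive and acute-phase genes, for SF/HA-HEP-PAM, SF/HA and Alkali-burned, which share the Control libraries; filled symbols are called and dotted lines mark -1 and 1. Timp1 lies furthest to the right in each group, at 2.69, 3.76 and 2.92, and Ccnd1 furthest to the left.

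Of 34 genes in the table known to respond to STAT3 or to belong to the acute phase, 26 were tested. Relative to Control, 10 were called higher and 0 lower in SF/HA-HEP-PAM, 8 higher and 1 lower in SF/HA, and 5 higher and 1 lower in Alkali-burned, where 9.21%, 3.19% and 4.42% of all tested genes were called higher. Called lower were 146, 84 and 78 of 6112 tested genes. With quantile normalization the counts were 8 higher and 1 lower in SF/HA-HEP-PAM, 5 and 1 in SF/HA, and 4 and 1 in Alkali-burned. Of all 6112 genes it called 385, 153 and 198 higher and 283, 93 and 115 lower. The list's median was 0.80, 0.87 and 0.55 log2 in these comparisons, and that of all tested genes was 0.14, 0.00 and 0.06. Lrg1, Hp and Tnfrsf1a were below 1 FPKM in every Control library and passed the filter only through the burned and patch libraries. All count in these medians, Lrg1 also in the calls of both patch groups and Hp in those of SF/HA. Timp1, an inhibitor of matrix proteases, had 75.1 to 105 FPKM in SF/HA-HEP-PAM, 127 to 233 FPKM in SF/HA and 79.8 to 154 FPKM in Alkali-burned, against 10.8 to 14.9 FPKM in Control. Its differences from Control were the largest of the list, 2.69 log2 in SF/HA-HEP-PAM (limma adjusted p = 0.000346), 3.76 in SF/HA (0.000101) and 2.92 in Alkali-burned (0.000407). Icam1, an adhesion molecule for leukocytes, rose in the 3 groups by 2.12, 1.66 and 1.67 log2 (limma adjusted p = 0.000353, 0.00264 and 0.00236).

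Lrg1, a secreted acute-phase glycoprotein, had 3.95 to 7.34 FPKM in SF/HA-HEP-PAM and 5.91 to 27.0 FPKM in SF/HA, against 0 to 0.895 FPKM in Control, and rose by 2.17 and 3.04 log2 (limma adjusted p = 0.0106 and 0.00504). No Control library reached 1 FPKM of Lrg1, so it passed the filter only through the burned and patch libraries. Fgl2, a fibrinogen-like protein of macrophages, rose in SF/HA-HEP-PAM, SF/HA and Alkali-burned by 1.54, 1.92 and 1.71 log2 (limma adjusted p = 0.00105, 0.00082 and 0.00121). Ccnd1, which encodes cyclin D1 and was chosen after its values were seen as the 1 gene called lower, fell in SF/HA by 1.21 log2 (limma adjusted p = 0.0332) and in Alkali-burned by 1.53 log2 (0.0102). Its SF/HA call was lost without Control replicate 2 or 3 or SF/HA replicate 2 or 3 (limma adjusted p up to 0.112).

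Against Alkali-burned, 2 list genes were called higher and 1 lower in SF/HA-HEP-PAM, and 1 higher and 0 lower in SF/HA. Of all tested genes 7.38% were called higher in SF/HA-HEP-PAM and 0.376% in SF/HA, so that 2 of 26 is near the share of all genes. Called lower were 227 of 6112 tested genes in SF/HA-HEP-PAM and 126 in SF/HA. With voom 5 of 27 were called higher in SF/HA-HEP-PAM, where it called 1379 of 8653 genes higher, which is also near the share of all genes. Cebpb, a transcription factor of the acute phase, had 985 to 1653 FPKM in SF/HA-HEP-PAM and 1002 to 1196 FPKM in SF/HA, against 370.4 to 489 FPKM in Alkali-burned. It rose by 1.61 log2 (limma adjusted p = 0.00215) and 1.39 log2 (0.0176); the SF/HA call was lost without Alkali-burned replicate 2 or 3 or SF/HA replicate 1 or 2 (0.0504 to 0.0877). Pim3, a kinase, rose in SF/HA-HEP-PAM by 1.57 log2 (limma adjusted p = 0.00228). A2m, an acute-phase protease inhibitor, fell in SF/HA-HEP-PAM by 1.24 log2 (limma adjusted p = 0.0288), a call lost without Alkali-burned replicate 1, 2 or 3 or SF/HA-HEP-PAM replicate 2 or 3 (0.0523 to 0.108). Between the patch groups 1 of 26 genes of the list was called, near the 4.37% of all tested genes called in either direction. It was Timp1, lower in SF/HA-HEP-PAM by 1.07 log2 (-1.07, limma adjusted p = 0.0483). That call was lost without SF/HA replicate 2 or 3 or SF/HA-HEP-PAM replicate 1, 2 or 3 (0.0713 to 0.165).

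Cytokines and NF-kB pathway genes that act on Il6 expression were read next to it, a list that also holds genes that restrain it, such as Nfkbia, Zc3h12a and Zfp36. The table held 16, of which 14 were tested. Relative to Control 4 were called higher in SF/HA-HEP-PAM, 2 in SF/HA and 2 in Alkali-burned, where 9.21%, 3.19% and 4.42% of all tested genes were called higher. The counts were 2, 1 and 1 with quantile normalization and 7, 3 and 3 with voom. Over all genes, quantile normalization called 385, 153 and 198 of 6112 higher, and voom 1232, 301 and 454 of 8653. Among the Alkali-burned calls was Il33 (limma adjusted p = 0.0496), which had 0.593 to 0.831 FPKM in Control. It passed the filter only through the burned and patch libraries. Its call was lost when any 1 Control or Alkali-burned library was left out (limma adjusted p = 0.0652 to 0.153). Il1b, interleukin-1 beta, had 36.5, 52.6 and 129 FPKM in SF/HA-HEP-PAM, 43.7, 175 and 64.5 FPKM in SF/HA and 25.9, 31.1 and 26.9 FPKM in Alkali-burned, against 13.8, 6.87 and 9.53 FPKM in Control. It rose by 2.58 log2 in SF/HA-HEP-PAM (limma adjusted p = 0.00765) and 2.90 log2 in SF/HA (0.0105) relative to Control. Nfkbia, the feedback inhibitor of NF-kB, rose in SF/HA-HEP-PAM by 1.42 log2 (limma adjusted p = 0.00391).

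Tnf ran the other way between the patch groups and Alkali-burned. It had 5.33, 6.49 and 11.95 FPKM in SF/HA-HEP-PAM and 4.00, 6.12 and 8.37 FPKM in SF/HA, against 17.9, 25.3 and 35.4 FPKM in Alkali-burned. It fell by 1.63 log2 in SF/HA-HEP-PAM (limma adjusted p = 0.0126) and by 1.92 log2 in SF/HA (0.0207) relative to Alkali-burned, and rose by 1.79 log2 in Alkali-burned relative to Control (0.0160). These calls share the burned libraries. Each was lost without Alkali-burned replicate 3 (limma adjusted p = 0.0530, 0.102 and 0.0621), the first also without SF/HA-HEP-PAM replicate 1 (0.0526) and the second also without Alkali-burned replicate 2, SF/HA replicate 1 or SF/HA replicate 2 (0.0853, 0.0751 and 0.0725).

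**Figure D4:**
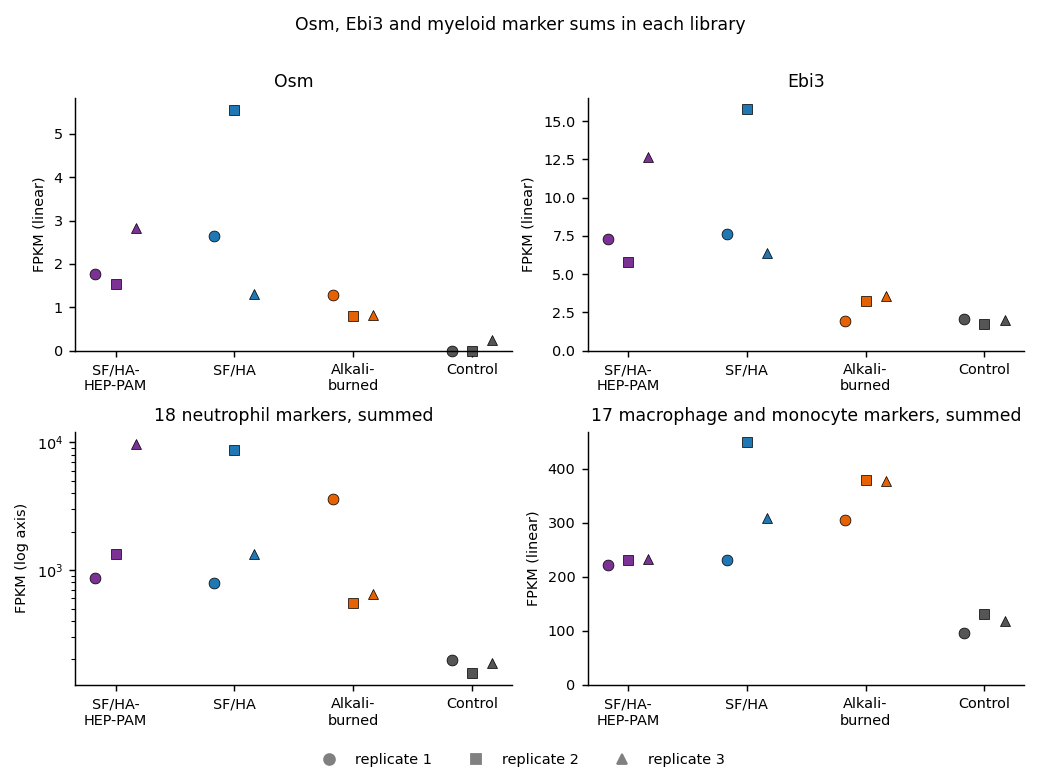
Osm and Ebi3 in FPKM (linear axes) beside the summed FPKM of 18 neutrophil markers (log axis) and 17 macrophage and monocyte markers (linear axis) in each of the 12 libraries. The neutrophil sum is nearly all S100a8 and S100a9. In SF/HA-HEP-PAM and SF/HA the library with the most Osm and Ebi3 and the highest neutrophil sum is the same one, replicate 3 and replicate 2. In Alkali-burned replicate 1 is highest for Osm and the neutrophil sum and lowest for Ebi3.

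Markers of myeloid cells were summed in each library. The 18 neutrophil markers summed to 867, 1329 and 9761 FPKM in SF/HA-HEP-PAM, 794, 8707 and 1324 FPKM in SF/HA and 3575, 553 and 651 FPKM in Alkali-burned, against 198, 156 and 188 FPKM in Control. Nearly all of that is S100a8 and S100a9: in SF/HA replicate 2 they had 3298 and 5395 FPKM. Of the defining neutrophil genes Retnlg, Mpo, Fpr1 and Cxcr1 were at 0 in all 12 libraries, and 13 of the 18 had fewer than 3 reads per library on average. Of 5 tested neutrophil markers, S100a9 and Il1r2 were called higher in SF/HA-HEP-PAM, Il1r2 in SF/HA and 0 in Alkali-burned, relative to Control, where 9.21%, 3.19% and 4.42% of all tested genes were called higher. The S100a9 call was lost without Control replicate 2 or 3 or SF/HA-HEP-PAM replicate 3 (limma adjusted p = 0.0556, 0.0531 and 0.0759). The Il1r2 call was lost in SF/HA-HEP-PAM without its replicate 2 or 3 (limma adjusted p = 0.0573 and 0.0793) and in SF/HA without Control replicate 2 (0.0527). Il1r2 was at most 0.112 FPKM in Control and passed the filter only through the patch libraries, so it had to stand above Control.

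The 17 macrophage and monocyte markers summed to 223 to 233 FPKM in SF/HA-HEP-PAM, 231 to 451 FPKM in SF/HA and 305 to 379 FPKM in Alkali-burned, against 96.4 to 131 FPKM in Control. Of 9 tested, 7 were called higher in SF/HA-HEP-PAM, 7 in SF/HA and 8 in Alkali-burned, relative to Control, against the same shares of all tested genes. T cell and mast cell markers summed to at most 2.88 FPKM in any library. The highest neutrophil sums named here are those of S100a8 and S100a9, which make up nearly all of each sum. In Alkali-burned, Osm, Il6, Csf3 and Lif were each highest in replicate 1, the library with the highest neutrophil sum, and Ebi3 was lowest there. In SF/HA-HEP-PAM the neutrophil markers, Osm and Ebi3 were highest in replicate 3, and Il6, Lif and Csf3 in replicate 2. In SF/HA the neutrophil markers, Osm, Ebi3 and Csf3 were highest in replicate 2, and Il6 and Lif in replicate 3. The part of the myeloid markers in the ligand differences was not tested.

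A set of 4 libraries was then left out together: Control replicate 1 and, in each other group, the library with the highest neutrophil sum (SF/HA-HEP-PAM replicate 3, SF/HA replicate 2, Alkali-burned replicate 1). That sum is nearly all S100a8 and S100a9. The 5 calls of each patch group against Control held, with Csf3 at 2.16 log2 in SF/HA-HEP-PAM and 2.64 log2 in SF/HA. The other calls of the 9 genes were lost, and of the 9 macrophage and monocyte markers 7, 7 and 8 were again called higher in SF/HA-HEP-PAM, SF/HA and Alkali-burned. Il6 in Alkali-burned was 1.89 log2 above Control (limma adjusted p = 0.0684). Ebi3 was 0.77 log2 above Alkali-burned in SF/HA-HEP-PAM and 0.86 log2 in SF/HA, past the p threshold (limma adjusted p = 0.0220 and 0.0384) and under the size threshold. The libraries left out were the highest for Ebi3 in each patch group (12.7 and 15.8 FPKM) and the lowest in Alkali-burned (1.95 FPKM). A smaller Ebi3 difference was therefore fixed by the choice of libraries, and the part of neutrophils in it was not tested.

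The genes whose log2(FPKM + 1) over the 12 libraries was most like each member were searched among 5340 tested genes with a symbol, as a description, since the libraries share groups and depth. Il6 was nearest to Timp1 (Pearson r 0.968) and Mt1, a metallothionein (0.950). Csf3 was nearest to Cxcl3, a chemokine for neutrophils (0.953), and Sod2, mitochondrial superoxide dismutase (0.952). Osm was nearest to Lrg1 (0.965) and Il1r2, the decoy receptor of interleukin-1 (0.955). Ebi3 was nearest to Akr1b8, an aldo-keto reductase (0.956), and Fcer1g, a signalling chain of Fc receptors (0.951). Lif was nearest to Hspb8, a small heat shock protein (0.943), and Eef1g, a translation elongation factor subunit (0.931). Stat3 was nearest to Kdm6b, a histone demethylase (0.978), and Gm22748 (0.959). Socs3 was nearest to Ggct (0.901) and Capns1 (0.854), and Il6st to Eef2 (0.881) and Wdr43 (0.873).

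Among the members themselves, Il6 and Csf3 ran closest over the 12 libraries (Pearson r 0.965), followed by Lif and Csf3 (0.927) and Osm and Ebi3 (0.912). Il6 and Ebi3 had an r of 0.665. Socs3 had an r of 0.0853 with Il6 and of -0.41 with Il6st, and Control replicate 1, low in Socs3 and high in Il6st, is among the points of both.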

How the data were processed

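RNA was sequenced from 12 rat cornea libraries, 3 in each of 4 labelled groups. The libraries were made from poly(dT)-primed cDNA with barcodes and molecular identifiers, per the labels' protocols; whether duplicates were collapsed is not given in the sources used here. The authors deposited 1 table of FPKM values. Reads, per the series text, were trimmed with fastp and counted with HTSeq-count; the submitters' processing notes name STAR and featureCounts on mRatBN7.2, and the 2 sources differ in the counter. The length column equals the genomic span in all 30452 genes; 108 lines naming no gene were left out. FPKM times length came out as whole reads (largest deviation 8.67e-06), 486264 to 2117399 per library.

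Tests used limma 3.58.1 in R 4.3.3 on log2(FPKM + 1) with a variance trend, fitted to the 12 libraries together with a mean for each of 4 groups, over the 6112 genes that reached 1 FPKM in 3 or more libraries; fold changes on this scale understate the change of low genes. The alternatives were pseudocounts of 0.5 and 0.1, other filters and scalings, voom on genes with at least 10 reads in 3 libraries, thinning, library weights, only the compared libraries, a replicate block, and left-out libraries. Library pairs of a group differed beyond sampling noise. The fit was tested on simulated data.

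The 9 genes, the gene lists and the tests were chosen with earlier results of these data known. Named genes were the 9, up to 4 called genes per list and comparison by size of the log2 difference (where fewer were called, up to 2 of the highest-expressed), and the 2 genes most like each tested one; not every gene the rule allows is named, and some results are not reported here. Figures used Python 3.11.15 and matplotlib 3.10.9.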

Additional observations from a re-analysis of the deposited data

How the results depend on the processing

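Of 893 recomputed differences of the 8 tested genes over all alternatives and left-out libraries, 819 kept direction and side of the threshold, 33 lost a call, 13 gained one and 28 changed sign, all 28 of them in differences that were not called. Unless a value below shows it, the cause was not tested.

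The call of Il6 in Alkali-burned against Control (1 gene) became 0 with no filter on low values and without the 4 libraries together, 2 with a pseudocount of 0.5, at least 5 FPKM in 3 libraries, voom and library weights, where Csf3 joined it, and 3 with a pseudocount of 0.1 and reads scaled to library size without length, where Osm joined as well. SF/HA against Alkali-burned (1 gene) became 0 with no filter, median-of-ratios scaling, quantile normalization, thinning, only the compared libraries, and without the 4 libraries. SF/HA-HEP-PAM against Alkali-burned (1 gene) became 0 with no filter, thinning and without the 4 libraries. With 1 library left out in turn these 3 counts ran from 0 to 1, 0 to 2 and 0 to 1; the 5 of each patch group against Control ran from 4 to 5 (and lost Lif in SF/HA with no filter, adjusted p = 0.0576, and Osm in SF/HA with only the compared libraries, 0.0504), the 0 between patch groups from 0 to 1, and the 6 of the F-test from 5 to 7.

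The differences that changed sign were these. Il6 in SF/HA-HEP-PAM against Alkali-burned was 0.015 with thinning and 0.19 both with library weights and without the 4 libraries, and -0.27 to 0.25 with 1 library left out. Between SF/HA-HEP-PAM and SF/HA, Lif was 0.00028 with thinning and 0.038 without the 4 libraries, Il6st was -0.081 with quantile normalization, and with 1 library left out Osm was -0.70 to 0.046 and Ebi3 -0.45 to 0.20. Il6st in Alkali-burned against Control was -0.031 with quantile normalization and -0.12 to 0.47 with 1 library left out, and in SF/HA against Control -0.010 to 0.58. Socs3 in SF/HA against Control was -0.024 with median-of-ratios, -0.051 with quantile normalization, -0.034 with voom, -0.0056 with thinning, -0.41 with library weights and -0.58 without the 4 libraries, and -0.47 to 0.25 with 1 library left out. Socs3 was -0.58 to 0.15 in Alkali-burned against Control and -0.0060 to 0.28 in SF/HA against Alkali-burned with 1 library left out, and -0.020 in SF/HA-HEP-PAM against Control without the 4 libraries.

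Labels share replicate numbers, but same-numbered libraries did not deviate together: 2 of 18 pairs had a correlation over 0.1 (range -0.0935 to 0.155). With the replicate number as a block, SF/HA against Alkali-burned had 0 members called, with Ebi3 at an adjusted p of 0.0792, and no other member count changed by over 1.5 times.

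Counts over all genes were higher with reads scaled to library size without length (719 against 348 for Alkali-burned against Control, 289 against 149 for SF/HA against Alkali-burned, 1580 against 678 for SF/HA-HEP-PAM against Alkali-burned, 762 against 267 for SF/HA-HEP-PAM against SF/HA, 601 against 279 for SF/HA against Control, 1526 against 709 for SF/HA-HEP-PAM against Control) and with voom (659, 238, 1903, 809, 421 and 1537 in the same order). No filter gave 217, 88 and 174 for Alkali-burned against Control, SF/HA against Alkali-burned and SF/HA against Control. At least 5 FPKM in 3 libraries gave 173 for SF/HA-HEP-PAM against SF/HA, and only the compared libraries gave 172 for SF/HA against Control. The F-test's 1629 genes became 1062 with at least 5 FPKM, 2626 with reads without length, 2634 with voom and 2729 with library weights. With 1 library left out the counts ran from 225 to 420, 74 to 183, 478 to 589, 88 to 319, 196 to 364 and 520 to 706 in the order above, and from 984 to 2027 for the F-test; 74 came with Alkali-burned replicate 2 left out, and 88 when SF/HA-HEP-PAM replicate 1 was. Quantile normalization moved the median of all genes by -0.14, -0.11, -0.21 and -0.25 log2 in Alkali-burned against Control and in SF/HA-HEP-PAM against Alkali-burned, SF/HA and Control, and the share of calls that were higher there became 63.3%, 55.1%, 70.8% and 57.6%, from 77.6%, 66.5%, 88.0% and 79.4%. Lif in SF/HA-HEP-PAM against Control was then 0.99 and no longer called. Depth limits Osm, Il11 and Ebi3 most, with at most 14, 3 and 62 reads in any library.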
